A study of Mus musculus with 6 samples.

Results

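Interleukins are secreted signalling proteins, most of them released by or acting on leukocytes, and each is read by a receptor built from a pair or trio of membrane chains. The genes described here are all those of the deposited files whose name begins with Il and a digit: 82 of 55401 genes, of which 81 are annotated as protein coding. By role, 38 encode ligands or ligand antagonists, 42 encode receptor chains or binding proteins, and 2 share only the name (Il4i1, an amino acid oxidase, and Il1bos, an antisense RNA of Il1b). Polyadenylated RNA had been sequenced from 3 epithelioid hemangioendothelioma (EHE) tumours of the peritoneal surface and from 3 livers, all from C57BL6 mice. EHE is a rare cancer of endothelial cells, and most human cases carry a WWTR1-CAMTA1 gene fusion, whose first partner encodes the co-activator TAZ. The series title describes the tumours as coming from an engineered mouse model, but the sources used here name neither the alleles of the groups, nor the driver of any transgene, nor ages, nor whether samples came from separate animals. P-values therefore set the difference between groups against the spread among these samples only, and part of that spread may be technical. Tumour state and tissue of origin changed together in the only comparison, so they cannot be told apart.

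Interleukin receptors fall into families with shared chains. IL-2, IL-4, IL-7, IL-9, IL-15 and IL-21 share the common gamma chain (Il2rg), IL-6, IL-11 and IL-27 share gp130 (Il6st), and IL-3, IL-5 and GM-CSF share the common beta chain (Csf2rb). Most of these chains signal through Janus kinases and STAT factors, whereas IL-1 and IL-17 family receptors signal through adaptors to NF-kB. In liver, IL-6 acting on hepatocytes drives the acute-phase response, and endothelial cells both release and answer IL-1, IL-6 and IL-33.

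Libraries held from 33881392 to 40277346 counts. Values below are CPM, the count as a rate per library, after trimmed-mean (TMM) scaling, and adjusted p-values are from edgeR's quasi-likelihood test over all 17387 genes that passed its low-count filter. TMM factors were 1.52 to 1.62 in tumours and 0.61 to 0.68 in livers, and scaling by library totals alone moved the all-gene median of the log2 fold change from 0.10 to 1.38. Rises below are therefore smaller, and falls larger, than they would be without that scaling. Defining markers followed the tissue labels. The 8 endothelial markers all rose and summed to 1969 to 4496 CPM in tumours against 116 to 159 in livers, and the 6 hepatocyte markers all fell and summed to 1.52 to 3.76 CPM against 143500 to 211400. Of 4 markers of liver sinusoidal endothelium, Clec4g, Oit3 and Stab2 fell (log2 fold changes -7.71, -5.08 and -4.35) and Lyve1 rose (2.38). Liver 2 had counts for 33274 genes against 19767 and 19001 in the other livers. Skeletal muscle transcripts, summed over 6 genes that all rose, were at 1461, 10740 and 2459 CPM in tumours 1 to 3 and at 0 to 0.52 CPM in livers. In these bulk samples, fewer cells of a type and less RNA per cell cannot be told apart.

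Of the 82 genes, 48 passed the filter, 19 of these rose in tumours, 10 fell and 19 did not pass the test at an adjusted p of 0.05. Among all genes tested 29.5% rose and 28.7% fell (58.2% called), so the shares among the interleukin genes that passed, 39.6% and 20.8%, are given as a description. The same background holds for every count of called genes by family, gene cluster or marker list. Their median log2 fold change was 1.43 against 0.10 for all genes tested. A gene high in a single group could pass the filter through that group, which these shares do not correct for. Without any overlap between groups, tumours were above livers for 22 of the 48 and livers above tumours for 10, against 35.1% and 33.1% of all genes tested (68.2% in either direction). Of the 29 called genes, 18 kept their call in each alternative analysis that gave them a value. These were Il2rg, Il21r, Il3ra, Il7, Il33, Il1r2, Il1rl2, Il18r1, Il10rb, Il17d, Il17rd, Il6, Il27ra and Il6st, which rose, and Il15ra, Il18, Il1rap and Il17rb, which fell. With library totals alone 32 rose and 4 fell. The falls of Il11ra1, Il13ra1, Il17rc, Il18bp, Il22ra1 and Il6ra lost their call there, and 13 genes gained a call as higher, so those 6 falls are relative to the TMM scaling. The 13 were Il10, Il10ra, Il15, Il17ra, Il18rap, Il1a, Il1r1, Il1rn, Il2ra, Il2rb, Il34, Il4 and Il4ra.

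**Figure D1:**
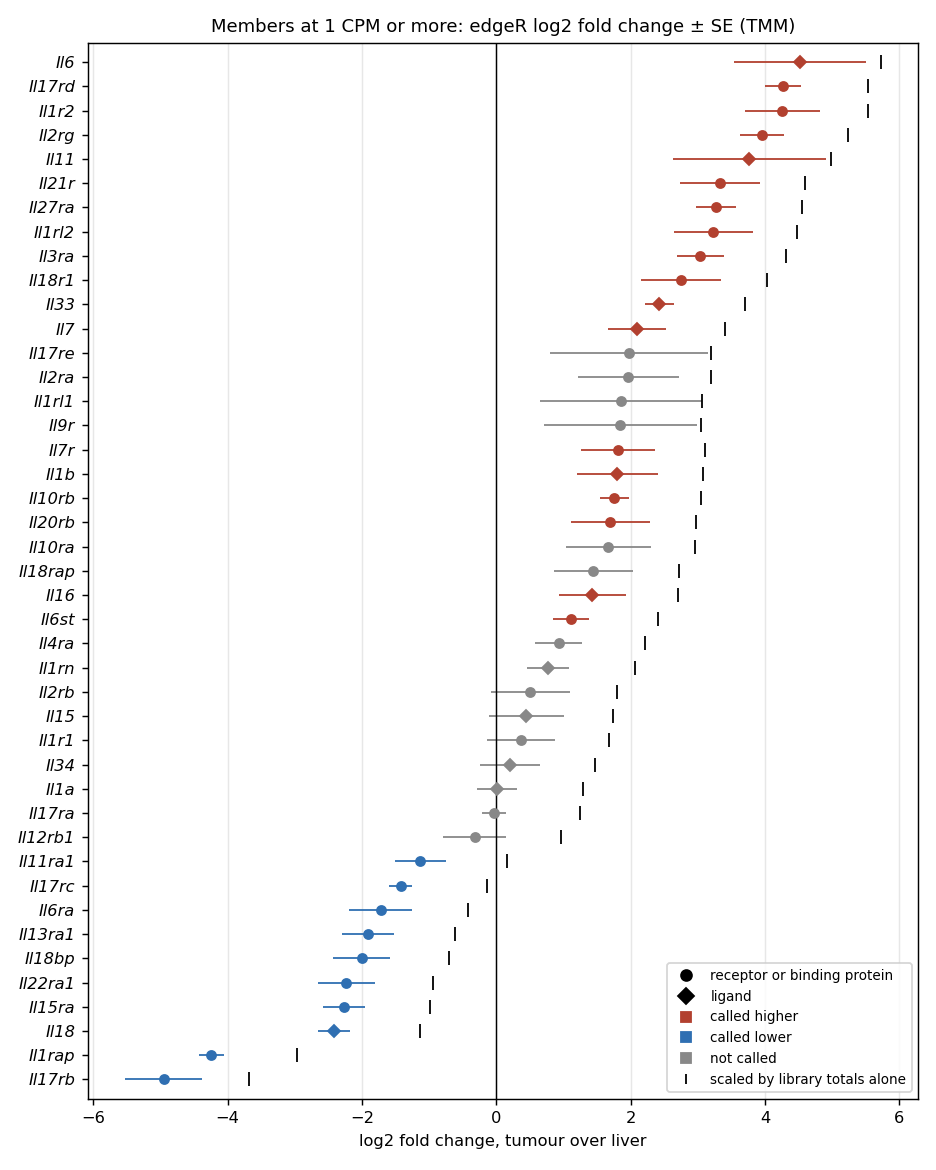
Log2 fold change of tumours over livers (horizontal axis, edgeR, TMM scaling, bars ± SE) for the 43 interleukin genes at 1 CPM or more in either group, with the value under library totals alone as a black tick. The black ticks lie to the right of every point, and Il17rb and Il1rap lie far below 0 under both scalings.

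The strongest tumour and liver genes of the group differed in identity. Per length, on the FPKM scale that the authors deposited, the most abundant member was Il2rg in tumours 1 and 2 (144.9 and 132 FPKM) and Il6st in tumour 3 (115 FPKM, with Il2rg at 107.5). In each liver it was Il1rap, at 62.8, 51.2 and 56.7 FPKM.

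The promoters of 4 of these genes are printed because they belong to the members with the largest changes at 10 CPM or more, Il17rd and Il2rg among the rises and Il17rb and Il1rap among the falls. Sequences are those of RefSeq on GRCm38.p6, from 250 bases before to 50 after the start, 5′ to 3′ on the gene's strand, and capitals mark matches on either strand to a small set of motifs. Of the 82 genes, 65 had a promoter in that table. Il17rd lies on the plus strand at chr14:27038751-27039050, Il2rg on the minus strand at chrX:101268206-101268505, Il17rb on the minus strand at chr14:30008847-30009146 and Il1rap on the plus strand at chr16:26581455-26581754.
Il17rd: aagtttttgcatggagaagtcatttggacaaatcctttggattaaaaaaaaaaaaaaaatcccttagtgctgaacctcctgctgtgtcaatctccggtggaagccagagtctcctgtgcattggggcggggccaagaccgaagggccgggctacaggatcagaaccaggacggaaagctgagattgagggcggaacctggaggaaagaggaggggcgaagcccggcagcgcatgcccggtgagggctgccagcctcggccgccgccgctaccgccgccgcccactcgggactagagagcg
Il2rg: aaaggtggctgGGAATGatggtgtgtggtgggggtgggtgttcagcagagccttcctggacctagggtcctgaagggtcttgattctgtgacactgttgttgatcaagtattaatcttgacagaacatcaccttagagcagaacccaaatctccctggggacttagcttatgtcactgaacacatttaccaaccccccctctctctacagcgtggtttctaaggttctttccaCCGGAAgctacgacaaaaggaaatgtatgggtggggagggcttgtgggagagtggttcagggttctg
Il17rb: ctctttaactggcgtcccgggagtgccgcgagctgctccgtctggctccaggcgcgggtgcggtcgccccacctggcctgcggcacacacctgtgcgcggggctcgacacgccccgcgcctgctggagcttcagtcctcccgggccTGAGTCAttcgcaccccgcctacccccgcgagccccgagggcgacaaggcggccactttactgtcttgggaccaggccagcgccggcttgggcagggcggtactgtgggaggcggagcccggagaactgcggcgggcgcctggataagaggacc
Il1rap: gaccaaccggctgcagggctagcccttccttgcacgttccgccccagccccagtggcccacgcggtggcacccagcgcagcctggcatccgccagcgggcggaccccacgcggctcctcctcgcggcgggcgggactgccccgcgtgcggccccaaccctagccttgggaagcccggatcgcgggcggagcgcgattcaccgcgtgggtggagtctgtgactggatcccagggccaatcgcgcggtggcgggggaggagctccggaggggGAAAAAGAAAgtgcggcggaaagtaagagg
The Il2rg promoter held a TEAD motif (GGAATG) from position -239 and an ETS motif (CCGGAA) from position -17, counted from the start. The Il17rb promoter held an AP-1 motif (TGANTCA), the Il1rap promoter an IRF motif, and the Il17rd promoter none of the 10 motifs searched. Among all 32851 promoters of the table, 14.7% held the TEAD letters, 14.9% the ETS letters, 7.8% the AP-1 letters and 3.4% the IRF motif. The Il17rb and Il1rap windows had 32 and 33 CpG dinucleotides, the Il17rd window 19 and the Il2rg window 3, against a median of 7 over all promoters. Of the 19 members that rose 16 had a promoter, and 2 of them held the TEAD letters (Il2rg and Il33), 3 the ETS letters, 2 the AP-1 letters, 3 the STAT letters (TTCNNNGAA) and 5 the C/EBP letters (TTGCNNAA). The last 2 motifs were in 8.3% and 10.8% of all promoters. Of the 10 that fell, none held the TEAD or STAT letters, 1 the ETS letters, 1 the C/EBP letters and 2 the AP-1 letters. An NF-kB motif was in 2 of these 10 and in 1 of the 16, against 5.8% of all promoters. A GATA motif was also in 2 and 1, against 11.2%. With 16 and 10 promoters these counts are small, and whether they differ from the shares of all promoters was not tested. A match is a run of letters and not a shown binding site.

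The common gamma chain and the IL-7 system rose. Il2rg (chromosome X, 101264378 to 101268255, GRCm38, as are all positions here), the chain shared by 6 cytokines, had 92.2, 85.3 and 57.5 CPM in the tumours, in the order of their numbers, against 6.73, 3.43 and 4.99 in the livers. Every tumour lay far above every liver, and the fitted rise was 15.5-fold (log2 fold change 3.95, SE 0.32, adjusted p = 7.98e-05). A same-strand gene model, Gm20489, covers 30.5% of the Il2rg exons, and the treatment of shared reads is not stated. Il7 (chromosome 3, 7569994 to 7613760), a survival factor for lymphocytes made by stromal and lymphatic endothelial cells, had 24.6, 18.1 and 40.1 CPM in tumours against 9.98, 4.29 and 5.12 in livers (log2 fold change 2.09, SE 0.43, adjusted p = 0.00496). Tumour 3 was the highest and the groups did not overlap. Its receptor chain Il7r, present on T cells and innate lymphoid cells, had 3.98, 9.73 and 7.97 CPM against 3.49, 1.04 and 1.65 (log2 fold change 1.81, SE 0.55, adjusted p = 0.0268). That call was lost without tumour 2 (1.54), tumour 3 (1.74), liver 2 (1.51) or liver 3 (1.69) (log2 fold changes in parentheses), the log2 value was 2.45 without liver 1, and adjusted p ranged from 0.000145 to 0.087 over the 19 alternatives that gave a value.

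Other receptors that pair with the common gamma chain split. Il21r (chromosome 7, 125603429 to 125633570), the IL-21 receptor of lymphocytes, had 8.07, 19.9 and 5.49 CPM in tumours and 1.62, 0.954 and 0.743 in livers (log2 fold change 3.33, SE 0.60, adjusted p = 0.00286; 2.62 without tumour 2). Tumour 2 was the highest by far, and every tumour lay above every liver. Il2ra, the high-affinity IL-2 chain of regulatory and activated T cells, had 1.08, 3.28 and 1.27 CPM against 0.324, 0.91 and 0.206 and did not pass (log2 fold change 1.96, adjusted p = 0.0582). It was 1.297 without tumour 2 and passed without liver 2 (2.82). Il2ra stayed uncalled in 9 of the 16 alternatives that gave a value, with adjusted p from 0.00884 to 0.191. Il2rb, shared by IL-2 and IL-15, overlapped between the groups, with 4.44, 14.2 and 4.75 CPM against 7.99, 2.73 and 5.74. Its fitted log2 value was 0.51 (-0.25 without tumour 2). Il9r, the IL-9 receptor, had 0.819, 2.92 and 0.577 CPM against 0.0811, 1.04 and 0.0826, and 24 of its 28 liver counts were in liver 2. Its log2 fold change of 1.84 did not pass (adjusted p = 0.204) and was 0.81 without tumour 2, while without liver 2 (4.11) it passed, and adjusted p ranged from 0.0122 to 0.588 over the 15 alternatives that gave a value.
The IL-15 receptor chain fell. Il15ra (chromosome 2, 11705290 to 11734317), which presents IL-15 to neighbouring cells, had 4.36, 9.04 and 8.45 CPM in tumours and 30.1, 41.4 and 34.2 in livers, a fall of 2.27 on the log2 scale (SE 0.31, adjusted p = 0.000825). The groups were well apart. Il15 itself had 1.97, 7.06 and 3.64 CPM against 4.62, 2.04 and 2.64, with overlap (log2 fold change 0.44, adjusted p = 0.524; -0.14 without tumour 2).
Markers of lymphocytes moved with some of these genes. The 6 T cell markers (3 rose, 3 did not pass) summed to 11.2, 33.2 and 15.2 CPM in tumours 1 to 3 and 3.76 to 10.2 in livers. Among the tumours, number 2 was also the highest for Il21r, Il2ra, Il2rb, Il9r and Il7r. It was the highest for 28 of all 43 interleukin genes at 1 CPM or more. Il2rg was instead highest in tumour 1 and Il7 in tumour 3. No T cell marker was at 0 in either group, and their part in these results was not tested. The 5 natural killer cell markers summed to 43.2, 10.4 and 30.5 CPM in tumours 1 to 3 and 2.17 to 2.76 in livers. Of these only Prf1 was called, as higher, and it made up most of the tumour sums, while Ncr1 and Klra8 were below the filter.

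IL-4 and IL-13 receptor chains and the IL-3 receptor differed from each other. Il4ra, the chain common to the IL-4 and IL-13 receptors, had 85.6, 99.3 and 43.4 CPM in tumours and 47.7, 27.6 and 45 in livers, and tumour 3 fell within the liver range. Its rise did not pass (log2 fold change 0.92, adjusted p = 0.0564). It passed without tumour 3 (1.21), with library totals alone, without a low-count filter, with DESeq2 and in every FPKM fit. Il4ra stayed uncalled in 11 of the 19 alternatives that gave a value, with adjusted p from 0.000151 to 0.21. Il13ra1 (chromosome X, 36112110 to 36171259), its partner in the type 2 receptor, had 21.3, 46.6 and 23.8 CPM against 117, 76.9 and 152, a fall of 1.92 (SE 0.38, adjusted p = 0.00465) that did not pass with library totals alone (-0.62, adjusted p = 0.147; adjusted p from 1.15e-11 to 0.218 over the 19 alternatives that gave a value). Il3ra (chromosome 14, 14346275 to 14356011), the IL-3 chain found on endothelium, basophils and plasmacytoid dendritic cells, had 48.6, 22.5 and 27.6 CPM against 4.83, 3.82 and 3.39 (log2 fold change 3.04, SE 0.34, adjusted p = 0.000354). All tumours exceeded all livers, with tumour 1 the highest. Its signalling partner Csf2rb rose too, with 35.9, 57.9 and 23.3 CPM against 12.7, 8.89 and 17.8 (log2 fold change 1.57, SE 0.39, adjusted p = 0.012). So did Csf2rb2, with 15.2, 18.1 and 12 CPM against 3.69, 2.38 and 4.25 (log2 fold change 2.13, SE 0.31, adjusted p = 0.000977). Any reads that Csf2rb and Csf2rb2 share could have been assigned to either gene. Neither ligand was there in quantity: Il3 had 0 counts in tumours and 4 in livers, all in liver 2, and Il13 had none in any library. Il4 had 64, 28 and 35 counts in tumours and 8, 10 and 14 in livers and did not pass (adjusted p = 0.371). Siglech, which marks plasmacytoid dendritic cells, overlapped at 0.147, 0.906 and 0.321 CPM in tumours and 0.162, 0.564 and 0.33 in livers. The 6 mast cell and basophil markers (2 rose) summed to 2.04 to 8.68 CPM against 0.33 to 2.76.

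**Figure D2:**
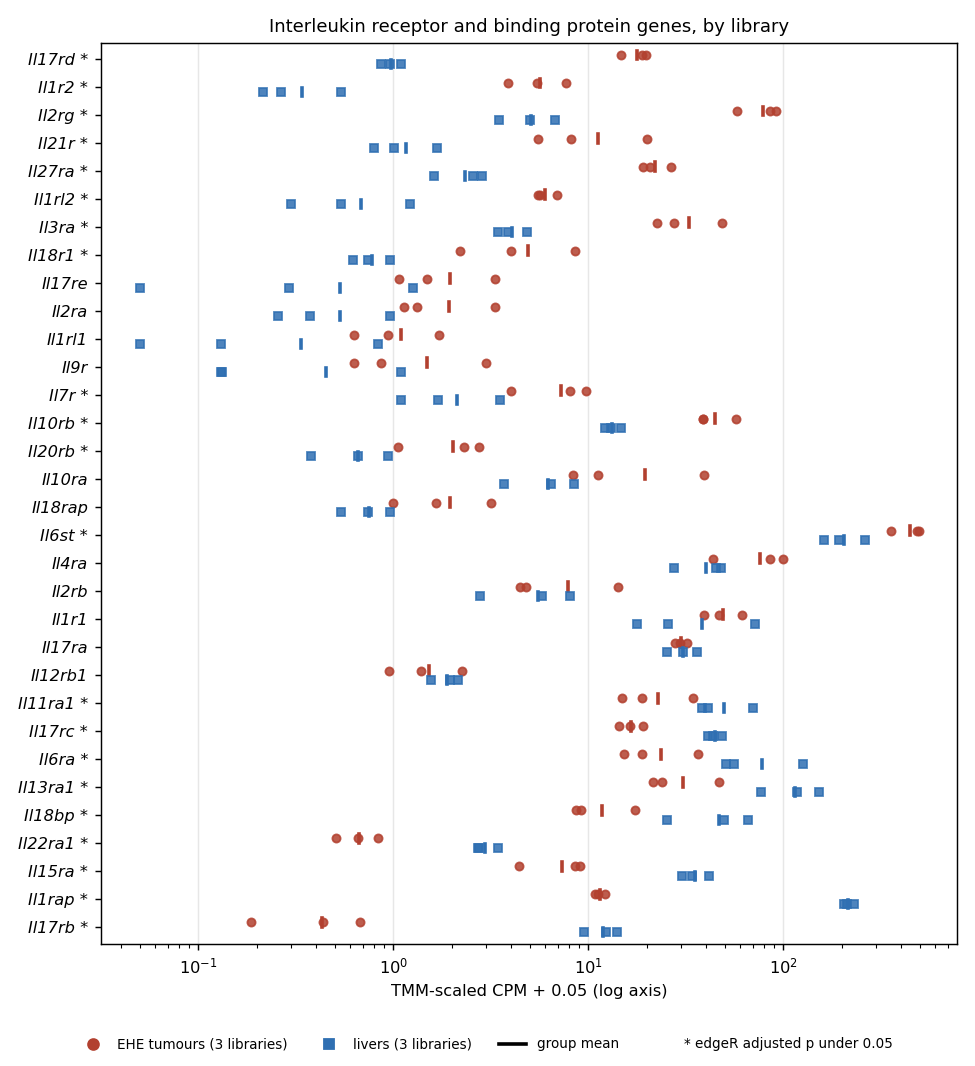
TMM-scaled CPM plus 0.05 on a log axis for the 32 receptor and binding protein genes at 1 CPM or more, with a point per library (tumours as circles, livers as squares), a bar at each group mean and an asterisk for an edgeR adjusted p under 0.05. Il17rd, Il1r2 and Il2rg stand at the top with tumours far to the right, and Il1rap and Il17rb at the bottom with livers far to the right.

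In the IL-1 family the ligands, decoys and accessory chain moved apart. Il33 (chromosome 19, 29925114 to 29960718), a nuclear alarmin of endothelial and stromal cells, had 23.5, 33.5 and 24.4 CPM in tumours and 4.62, 5.55 and 4.99 in livers, with little spread inside either group (log2 fold change 2.42, SE 0.22, adjusted p = 0.000113). Il18 (chromosome 9, 50554827 to 50581840), a cytokine activated by caspase-1, went the other way, with 4.65, 6.58 and 5.23 CPM against 36.7, 23.9 and 27.4 (a fall of 2.42, SE 0.25, adjusted p = 0.000195). Neither gene's groups overlapped. Il1b, the secreted IL-1 of activated myeloid cells, had 23.7, 4.94 and 9.21 CPM against 4.83, 2.34 and 3.67, so that tumour 1 was far above the rest and tumour 2 barely above liver 1. Its rise (log2 fold change 1.80, SE 0.60, adjusted p = 0.0368) was lost without tumour 1 (0.98), liver 1 (2.09), liver 2 (1.59) or liver 3 (1.83), and adjusted p ranged from 1.72e-06 to 0.139 over the 19 alternatives that gave a value. Il1a, the cell-associated IL-1, was level under TMM scaling at 4.4, 4.87 and 3.71 and 3.65, 4.34 and 4.91 CPM (log2 fold change 0.01, SE 0.29). With library totals alone and in every FPKM fit it was called higher (adjusted p from 0.00111 to 0.999 over the 19 alternatives that gave a value). Il1rn, the receptor antagonist, had 20.4, 12.1 and 16.4 CPM against 9.65, 6.46 and 12.6 and did not pass (log2 fold change 0.77, adjusted p = 0.0719). It passed as higher without tumour 2 (0.95), liver 3 (1.03) or libraries 2 of both groups. The same held with library totals alone, no low-count filter, the replicate block and every FPKM fit. Il1rn stayed uncalled in 9 of the 19 alternatives that gave a value, with adjusted p from 0.000355 to 0.21.
The 6 macrophage markers (3 rose) summed to 860.1, 3031 and 700.4 CPM in tumours 1 to 3 and 227 to 657 in livers, with none at 0. The 6 neutrophil markers (none rose, 2 fell) summed to 15.2, 5.9 and 19.6 CPM in tumours and 10.1 to 92.7 in livers, with Ly6g at 2 counts in all tumours together. Their part in the Il1b result was not tested. Fibroblast markers (4 of 5 rose) summed to 797 to 1189 CPM in tumours against 335 to 410.2 in livers, and mesothelial markers (4 of 5 rose) to 65.2 to 210.1 against 3.67 to 28.5. Their part in the rises of Il33, Il7 and Il11 was not tested either.

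**Figure D3:**
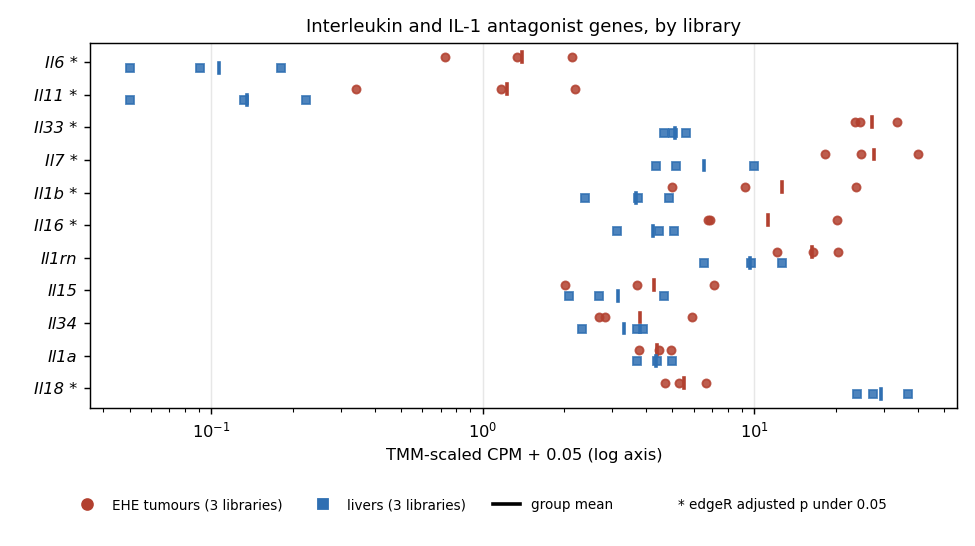
TMM-scaled CPM plus 0.05 on a log axis for the 11 ligand and antagonist genes at 1 CPM or more, with a point per library, a bar at each group mean and an asterisk for an edgeR adjusted p under 0.05. Il33 and Il7 are separated at the higher levels, Il6 and Il11 near 1 CPM, and Il18 is the ligand with livers above tumours.

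The receptors of this family are mostly encoded together. On chromosome 1 a stretch of 478 kb, from 40074079 to 40551705, holds Il1r2, Il1r1, Il1rl2, Il1rl1, Il18r1 and Il18rap in that order. Of these 3 rose and 3 did not pass, beside 29.5% of all genes tested that rose and 28.7% that fell. Il1r2, a decoy receptor that binds IL-1 without signalling, had 7.61, 3.83 and 5.39 CPM in tumours and 0.487, 0.217 and 0.165 in livers (log2 fold change 4.26, SE 0.56, adjusted p = 0.000658; 4.88 without liver 1). Il1rl2, the receptor for IL-36, had 5.45, 6.85 and 5.6 CPM against 0.487, 1.17 and 0.248 (log2 fold change 3.23, SE 0.58, adjusted p = 0.00288; 4.03 without liver 2). Il18r1, the binding chain for IL-18, had 2.16, 8.51 and 3.96 CPM against 0.568, 0.694 and 0.908 (log2 fold change 2.75, SE 0.59, adjusted p = 0.00642; 2.09 without tumour 2). Each of these 3 was higher in every tumour than in any liver. Il18rap, the second IL-18 chain, had 0.95, 3.13 and 1.6 CPM against 0.487, 0.694 and 0.908, without overlap but short of the threshold (adjusted p = 0.0703), which it passed without tumour 1 (1.77). Over its 16 alternatives adjusted p ranged from 0.00508 to 0.249.
Il1r1, the signalling IL-1 receptor, was abundant in both tissues, with 46.8, 61.7 and 39.3 CPM in tumours and 25.6, 17.7 and 71.5 in livers. Liver 3 was above all tumours, and without it the rise passed (log2 fold change 1.20, adjusted p = 0.0172; 0.36 and 0.564 with it; adjusted p from 0.00996 to 0.942 over the 19 alternatives that gave a value). The rise also passed with library totals alone and in every FPKM fit. Il1rl1 (ST2), the receptor for IL-33, had 0.884, 1.66 and 0.577 CPM against 0.0811, 0.78 and 0 and did not pass (log2 fold change 1.86, adjusted p = 0.224). Of its 20 liver counts 18 were in liver 2, and without that library the log2 value was 4.60 (adjusted p = 0.019; adjusted p from 0.0137 to 0.441 over the 15 alternatives that gave a value).

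**Figure D4:**
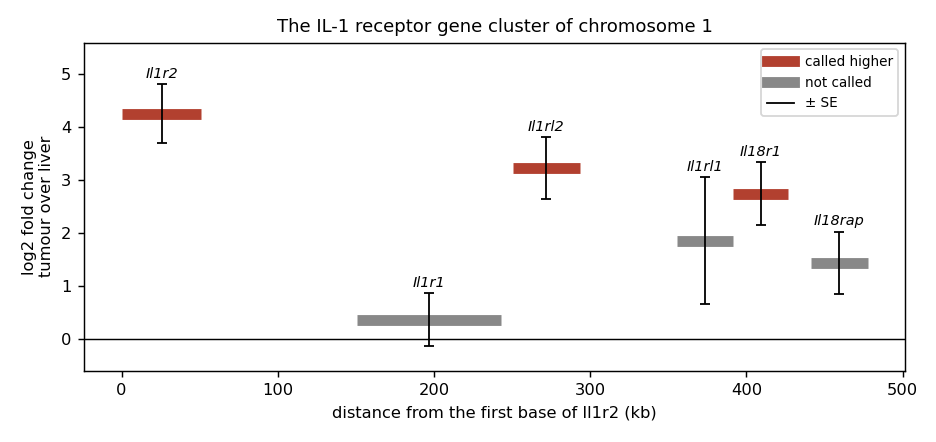
Log2 fold change of tumours over livers (vertical axis, bars ± SE) for the 6 genes of the IL-1 receptor cluster, drawn at their extent in kb from the first base of Il1r2. Il1r2, Il1rl2 and Il18r1 were called higher, and Il1r1 between them lies near 0.

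Il1rap (chromosome 16, 26581704 to 26730117), the accessory chain that IL-1, IL-33 and IL-36 receptors all need to signal, had 12.1, 11.2 and 10.8 CPM in tumours and 229.8, 205 and 211 in livers. This 18.9-fold fall (log2 fold change -4.24, SE 0.18, adjusted p = 1.12e-05) barely moved with single libraries, with log2 values from -4.28 to -4.17 when any single library was left out. The counts are per gene, and the transcript length implied by counts and FPKM together was 4.58 kb in tumours and 2.44 kb in livers. Which Il1rap transcripts fell was therefore not resolved. Il18bp, a secreted protein that neutralises IL-18, fell as well, with 8.6, 17.3 and 9.09 CPM against 49.4, 25.4 and 66 (log2 fold change -2.01, adjusted p = 0.00595). That fall did not pass with library totals alone (-0.71, adjusted p = 0.14; adjusted p from 1.65e-12 to 0.14 over the 18 alternatives that gave a value), and Il18bp was listed at 0 FPKM in all 3 tumours despite 525, 1013 and 567 counts. Sigirr, an inhibitory receptor of the same family, had 22.8, 12.3 and 23.2 CPM against 38.1, 27.5 and 31.3 and did not pass (log2 fold change -0.73, adjusted p = 0.0561; 0.56 with library totals alone). It passed as lower under the 1 CPM filter, limma-voom, the replicate block and without libraries 2 of both groups, and adjusted p ranged from 0.0322 to 0.757 over the 19 alternatives that gave a value. Falls of Il1rap and Il18 sat beside hepatocyte markers that were almost at 0 in tumours, and the part of hepatocytes in them was not tested.

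Il6 and Il11 rose from near 0 and so did the shared chain Il6st from a high level, while the private chains Il6ra and Il11ra1 fell under TMM scaling (log2 values -0.43 and 0.15 with library totals alone, neither called). Il6 (chromosome 5, 30013114 to 30019981), an inflammatory cytokine, had 79, 122 and 42 counts in tumours and 0, 3 and 1 in livers, or 1.29, 2.09 and 0.674 CPM against 0, 0.13 and 0.0413 (log2 fold change 4.52, SE 0.99, adjusted p = 0.00669; 5.88 without liver 2). Il11 (chromosome 7, 4772373 to 4782859), a gp130 cytokine of stromal cells, had 130, 17 and 70 counts against 0, 4 and 2 (log2 fold change 3.76, SE 1.14, adjusted p = 0.0256). Tumour 1 was the highest and tumour 2 close to the livers. The Il11 call was lost without tumour 1 (3.03), tumour 3 (3.80), liver 1 (3.21) or liver 3 (3.77), was at 4.78 without liver 2, and adjusted p ranged from 0.000701 to 0.0964 over the 15 alternatives that gave a value. Liver 2 held 3 of the 4 liver counts of Il6 and 4 of the 6 of Il11.
Il6st (chromosome 13, 112464070 to 112510086), which encodes gp130, had 494, 355 and 486 CPM in tumours and 163, 193 and 262 in livers, a 2.16-fold rise (log2 fold change 1.11, SE 0.27, adjusted p = 0.0106). Its groups did not overlap. Il6ra, the IL-6 binding chain of hepatocytes and leukocytes, had 18.9, 36.4 and 15.2 CPM against 51.1, 55.8 and 126, highest in liver 3 (a fall of 1.72, SE 0.47, adjusted p = 0.0164). The call was lost without tumour 1 (-1.58) or tumour 3 (-1.48) and with library totals alone (-0.43), and adjusted p ranged from 4.32e-09 to 0.494 over the 19 alternatives that gave a value. Il11ra1, the IL-11 binding chain, had 14.9, 34.3 and 18.9 CPM against 69.8, 41.1 and 38.1, a fall of 1.13 (SE 0.38, adjusted p = 0.0359) that turned to 0.15 with library totals alone and lost its call without tumour 1 (-0.89), tumour 3 (-1.01), liver 1 (-0.78) or liver 2 (-1.23) (adjusted p from 0.000253 to 0.863 over the 19 alternatives that gave a value). Its paralog Il11ra2 had 47 counts in all 6 libraries together, and reads that the pair share could have been assigned to either gene.
Il27ra (chromosome 8, 84030294 to 84042589), the IL-27 receptor that pairs with gp130, had 26.5, 20.7 and 19 CPM against 2.51, 1.56 and 2.81, a 9.6-fold rise (log2 fold change 3.26, SE 0.30, adjusted p = 0.000122). The 3 tumours were alike and far above the livers. Il27, the p28 subunit of its ligand, had 12, 54 and 6 counts against 2, 15 and 6 (adjusted p = 0.821), and Ebi3, the other subunit, had 3.7, 4.67 and 1.46 CPM against 2.72, 0.303 and 1.32 (log2 fold change 1.17, adjusted p = 0.239; 2.03 without liver 1). Il12rb1, shared by the IL-12 and IL-23 receptors, overlapped at 0.901, 2.19 and 1.33 and 2.11, 1.52 and 1.9 CPM (log2 fold change -0.32; 0.96 with library totals alone). Il12a, Il12b, Il12rb2 and Il23r were below the filter, and Il23a did not pass (28, 20 and 28 counts against 4, 11 and 0, adjusted p = 0.45).

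Receptor chains of the IL-10 family changed in different directions. Il10rb (chromosome 16, 91406164 to 91425834), the widely expressed chain shared by IL-10, IL-22 and the lambda interferons, had 38.6, 57.3 and 38.6 CPM in tumours and 13.1, 12.1 and 14.6 in livers (log2 fold change 1.76, SE 0.21, adjusted p = 0.000454). The groups did not overlap, and a same-strand readthrough model, Gm21970, covers 14.9% of its exons. Il22ra1 (chromosome 4, 135728172 to 135752140), the epithelial and hepatocyte chain for IL-22, had 0.459, 0.786 and 0.609 CPM against 2.68, 2.69 and 3.39 (a fall of 2.23, SE 0.42, adjusted p = 0.00336). With library totals alone that fall was -0.95 and did not pass (adjusted p = 0.0823; adjusted p from 1.08e-07 to 0.0823 over the 16 alternatives that gave a value). Il10ra, the leukocyte chain that binds IL-10, had 11.2, 39.2 and 8.26 CPM against 8.4, 3.64 and 6.4. Tumour 2 alone stood out, and the log2 value of 1.67 (adjusted p = 0.0577) was 0.67 without it. The rise passed without tumour 3 (2.04), with library totals alone, without a low-count filter, with DESeq2 and in every FPKM fit. Il10ra stayed uncalled in 11 of the 19 alternatives that gave a value, with adjusted p from 1.05e-05 to 0.265. Il20rb, a chain of the receptors for IL-19, IL-20 and IL-24, had 2.69, 1.01 and 2.26 CPM against 0.892, 0.607 and 0.33 (log2 fold change 1.70, adjusted p = 0.0425). Its call was lost without tumour 1 (1.43) and without most other single libraries (adjusted p from 0.00387 to 0.135 over the 16 alternatives that gave a value). Il10 had 28, 60 and 27 counts against 6, 4 and 0 and did not pass (adjusted p = 0.0972), and Il19, Il20, Il22 and Il24 had at most 2 counts in any library.

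Of the 5 IL-17 family receptor genes 1 rose and 2 fell, beside 29.5% and 28.7% of all genes tested. Il17rd (chromosome 14, 27038941 to 27107286), also called Sef and known as a brake on fibroblast growth factor signalling, had 19.7, 18.9 and 14.7 CPM in tumours and 0.811, 1.04 and 0.908 in livers, a 19.2-fold rise (log2 fold change 4.27, SE 0.27, adjusted p = 2.71e-05). The tumours were alike and all livers were near 1 CPM. Il17rb (chromosome 14, 29996135 to 30008896), the receptor for IL-25, had 0.622, 0.137 and 0.385 CPM against 12.3, 14 and 9.41, the largest fall among the members (30.9-fold, log2 fold change -4.95, SE 0.57, adjusted p = 0.000386). It was far lower in each tumour than in any liver. Il17rc, a partner chain for IL-17A and IL-17F, had 19.1, 14.3 and 16.3 CPM against 48.7, 41.1 and 43.5 (a fall of 1.42, SE 0.17, adjusted p = 0.000454), which was -0.14 with library totals alone (adjusted p = 0.473; adjusted p from 3.41e-10 to 0.473 over the 19 alternatives that gave a value). Il17ra, the chain common to the family, was level at 31.9, 29.6 and 27.9 and 30.4, 25.2 and 36.2 CPM (log2 fold change -0.04, SE 0.18; 1.25 and called higher with library totals alone). Il17re, the receptor for IL-17C, had 1.02, 3.27 and 1.44 CPM against 0.243, 1.21 and 0 and did not pass (log2 fold change 1.97, adjusted p = 0.192). It was 1.35 without tumour 2 and passed without liver 2 (3.95) (adjusted p from 0.0153 to 0.399 over the 16 alternatives that gave a value). It lies next to Il17rc within 25 kb of chromosome 6.
Among the ligands, Il17d (chromosome 14, 57524777 to 57543166) rose at low counts, 40, 44 and 57 in tumours against 2, 2 and 2 in livers (log2 fold change 3.17, SE 0.59, adjusted p = 0.00315). Il17a had 12, 2 and 6 counts in tumours and none in livers, and Il17f 2, 0 and 8 and none, which is too few for a fold. Il25, the ligand of Il17rb, had no counts in any library.

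A pair of cytokines outside these families were measured as well. Il16, a lymphocyte chemoattractant released from a longer precursor, had 6.84, 20.1 and 6.72 CPM in tumours and 5.03, 3.08 and 4.42 in livers, and tumour 2 was the highest. Its rise (log2 fold change 1.43, SE 0.50, adjusted p = 0.0428) was lost without tumour 2 (0.71), liver 1 (1.61), liver 2 (1.26) or liver 3 (1.48) (adjusted p from 1.81e-05 to 0.158 over the 18 alternatives that gave a value), and it was listed at 0 FPKM in all 3 livers despite 124, 71 and 107 counts. The opposite-strand gene Stard5 shares 15.3% of the Il16 exons. Il34, the second ligand of the CSF-1 receptor, overlapped at 2.64, 5.85 and 2.77 and 3.85, 3.64 and 2.27 CPM (log2 fold change 0.20; -0.26 without tumour 2). With library totals alone and in every FPKM fit Il34 was called higher (adjusted p from 0.0031 to 0.981 over the 19 alternatives that gave a value).

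The remaining ligands had few counts in both tissues. Below the filter were 34 genes, 22 of them ligands, 10 receptor chains and the 2 that share only the name. No counts at all were found for Il13, Il25, Il31, Il1f6, Il1f8 and Il1f10, the last 3 being IL-1 family cytokines of epithelia. A count of 0 allows up to 3 counts per library, a limit that covers counting error only. Il3, Il5, Il9, Il17b, Il19, Il20, Il22 and Il24 had at most 4 counts in any library, and Il2 and Il21 at most 8. For Il2 the deposited scales differ: it was listed at 1.61, 1.08 and 1.54 FPKM in tumours and 0.374, 0.628 and 0.239 in livers and was called higher in all 4 FPKM fits, although tumour 2 had 0 counts of it. The highest count below the filter was for Il1f9 (IL-36 gamma), with 75, 6 and 36 counts in tumours and 8, 0 and 8 in livers, low in tumour 2. Il5ra, Il13ra2, Il20ra, Il22ra2, Il31ra, Il1rapl1 and Il1rapl2 had at most 16 counts in any library. The Il4, Il13 and Il5 genes lie within 122 kb of chromosome 11 and the Il10, Il19, Il20 and Il24 genes within 143 kb of chromosome 1, and in each stretch 1 gene (Il4, Il10) held most of the counts. Neighbours could also differ: Il31ra had 15 counts in all, next to Il6st with 81281 in tumours and 14808 in livers.

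Within the tumours, tumour 2 was the highest for 28 of the 43 genes at 1 CPM or more, tumour 1 for 14 and tumour 3 for 1. Genes highest in tumour 1 included Il2rg, Il3ra, Il1b, Il1rn, Il1r2, Il27ra, Il17rd, Il11 and Il6st, and those highest in tumour 2 included Il10ra, Il21r, Il16, Il9r, Il18r1 and Il33. Tumour 2 also had the highest sums of macrophage, T cell, Kupffer cell, skeletal muscle and mesothelial markers. Its endothelial sum was the lowest (4496, 1969 and 3730 CPM in tumours 1 to 3). Podxl, Pecam1, Cdh5, Erg and Tek were lowest in tumour 2. Emcn (8.22, 23 and 8.66 CPM) and Vwf (15.9, 16.8 and 8.82) were highest there, and Kdr was near level (142, 150 and 152). Of the 4 Kupffer cell markers, Clec4f (0, 2 and 4 counts in tumours) and Cd5l fell against livers, with log2 fold changes of -12.19 and -2.78. Vsig4 and Timd4 were not called. The B and plasma cell markers summed to 92.9, 544 and 335 CPM. How far cell makeup sets these differences between tumours was not tested.

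Among 67 genes listed as signalling partners, all of which passed the filter, 31 rose, 7 fell and 29 did not pass, with a median log2 fold change of 0.93 against 0.10 for all genes tested. Their shares were 46.3% higher and 10.4% lower, beside 29.5% and 28.7% of all genes tested, the background also for the smaller lists that follow. With library totals alone 58 rose and 1 fell. The number that fell was 4 without tumour 1, 11 without tumour 2 and 3 without liver 3. Of 18 receptor chains and cytokines that share them 11 rose and 1 fell. Osmr, the oncostatin M chain that pairs with gp130, had 108, 73.2 and 73.9 CPM in tumours and 3.73, 5.98 and 4.91 in livers (log2 fold change 4.12, SE 0.27, adjusted p = 3.58e-05). Lifr, which also pairs with gp130, went the opposite way, with 70.8, 44.4 and 47.3 CPM against 209.9, 209 and 289.6 (a fall of 2.12, SE 0.27, adjusted p = 0.000524). Neither gene overlapped between groups. Their ligands Osm (207, 173 and 149 counts against 2, 2 and 0) and Lif (685, 112 and 193 against 4, 8 and 0) both rose (adjusted p = 0.000772 and 0.00805). The log2 value of Lif was 4.98, against 3.88 without tumour 1 and 6.02 without liver 2. Crlf2, the receptor for TSLP, rose (43.2, 35 and 37.1 CPM against 10.3, 7.54 and 12.8, log2 fold change 1.91, SE 0.23, adjusted p = 0.00045), and Tslp did not pass (0.475, 1.11 and 0.674 CPM against 0.243, 0.173 and 0, log2 fold change 2.41, adjusted p = 0.067; 3.12 without liver 1).
Inside the cell, 7 of 12 SOCS and feedback genes rose and 1 fell. Socs3, the feedback inhibitor of gp130 signalling, had 177, 86.5 and 101 CPM against 9.49, 4.81 and 32.4, with every tumour above every liver (log2 fold change 2.97, SE 0.71, adjusted p = 0.0101; 4.10 without liver 3, and not called without a low-count filter). Cish, a feedback inhibitor of STAT5 signalling, had 2.55, 5.23 and 4.68 CPM against 26.9, 10.8 and 10.1 (a fall of 1.94, SE 0.48, adjusted p = 0.0115; -1.30 without liver 1, and -0.64 and not called with library totals alone). Of the 11 Janus kinases and STAT factors 2 rose and 2 fell. Jak3, the kinase bound to the common gamma chain, had 66.8, 73.6 and 71.1 CPM against 27.6, 23.6 and 47.6 (log2 fold change 1.10, SE 0.27, adjusted p = 0.0117), and Stat2, an interferon-signalling factor, had 21.1, 42.9 and 26.9 against 67.9, 77.6 and 74.6 (log2 fold change -1.27, adjusted p = 0.00585; 0.0036 with library totals alone). Of 17 IL-1 and IL-17 adaptors 9 rose and 2 fell, among them Nfkb1, an NF-kB subunit (116, 124 and 116 CPM against 31.2, 32.3 and 36.9, log2 fold change 1.83, SE 0.15, adjusted p = 8.36e-05), and Tollip, an inhibitor of IL-1 signalling (72.1, 58.4 and 70.2 against 109, 98.2 and 109, log2 fold change -0.66, adjusted p = 0.0111, but 0.63 and called higher with library totals alone; its call was lost without liver 3 (-0.61)). Of 9 inflammasome and processing genes 2 rose and 1 fell. Casp4, the caspase-11 gene, had 14.1, 19.4 and 16.9 CPM against 3.73, 2.04 and 2.15 (log2 fold change 2.67, SE 0.32, adjusted p = 0.000422), and Gsdmd, the pore protein through which IL-1 beta leaves cells, had 30.6, 39.8 and 22 against 63.2, 46.4 and 67.7 (log2 fold change -0.94, adjusted p = 0.0176, turning to 0.34 with library totals alone; its call was lost without tumour 1 (-0.93), liver 1 (-0.87) or liver 3 (-0.82)).

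**Figure D5:**
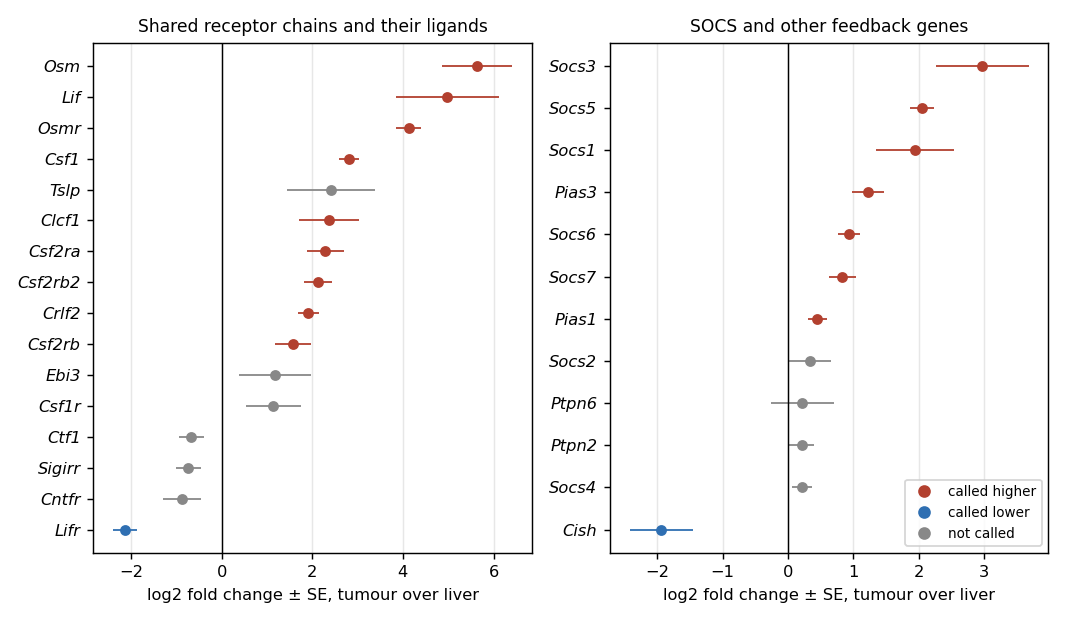
Log2 fold change of tumours over livers (horizontal axis, edgeR, bars ± SE) for shared receptor chains with their ligands (left) and for SOCS and other feedback genes (right), coloured by call. Genes with 3 or fewer counts in a group are not drawn. Osmr and Socs3 lie far to the right and Lifr and Cish to the left.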

How the data were processed

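Polyadenylated RNA of 6 samples was measured, 3 mouse EHE tumours and 3 livers, grouped by their titles. The submitters' processing notes name HISAT2 2.1.0, Cufflinks 2.2.1.3 and the mm10 build, and the authors deposited FPKM values per gene. The deposited count table holds whole-number counts for 55401 Ensembl genes. No source used here says how counts were made, by which annotation, or how strand and shared reads were treated, so values of overlapping, antisense and paralogous genes are uncertain. The deposited FPKM files supplied gene names, levels per length and an alternative test. Of values from 1 to 10 counts, 55.0% to 70.7% were even. Whether mates were counted separately was not tested, and if they were, counting intervals are too narrow.

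The interleukin genes and all gene lists were chosen with earlier results of these data known. Genes were kept by filterByExpr (17387), scaled by TMM and tested with edgeR 4.0.16 (quasi-likelihood, robust) in R 4.3.3 without covariates. P-values were Benjamini-Hochberg adjusted over all genes tested, with 0.05 as the threshold for a call. SE is the absolute log2 fold change over the root of edgeR's F. Values per library are given for each interleukin gene that passed the filter with 1 CPM or more in either group, and for signalling partners the largest called rise and fall of each list and the partners of described receptors, except 1 result that is not reported here. Alternatives were RLE size factors, library totals alone, DESeq2 1.42.0, a replicate block, limma-voom (limma 3.58.1), TMM computed after dropping the 100 most abundant genes, a filter of 1 CPM in 3 libraries or no filter, leaving out each library, leaving out libraries 2 of both groups, and limma on log2(FPKM + 1) or log2(FPKM + 0.1), the former also without a filter. Treating an FPKM of 0 at 50 or more counts as missing was added after seeing the data. Fits were tested on simulated data in which few genes changed and both groups shared a base profile. That test does not cover a shift in composition as large as the one between these tissues. Chi-square per degree of freedom between libraries of a group was at least 95.8, and no libraries were merged. Positions come from the GRCm38 annotation of GENCODE (M21), which shares its assembly with mm10. Of 242 entries in the gene lists, 231 matched a gene name.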

Additional observations from a re-analysis of the deposited data

How the results depend on the processing

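Against 19 interleukin genes called higher and 10 lower, library totals alone gave 32 and 4, and the limma fits of log2(FPKM + 1), of log2(FPKM + 0.1), of log2(FPKM + 1) without a filter and with zeros at 50 or more counts taken as missing gave 22 and 5, 22 and 5, 34 and 5, and 21 and 4. For all genes the 5137 higher and 4982 lower became 10688 and 2172 with library totals alone, and 8625 and 2031, 8618 and 2022, 9701 and 2220, and 8573 and 1972 in those FPKM fits. For the partners the 31 higher and 7 lower became 58 and 1 with library totals alone, then 47, 48, 49 and 48 higher with 1 lower in each FPKM fit. Without a low-count filter 4 partners were lower, and without libraries 2 of both groups 13 were. Leaving out single libraries gave 15 to 19 interleukin genes higher, 8 to 10 lower, and 3 to 11 partners lower. With the replicate number as a block 18 interleukin genes were higher and 9 lower, and 24 of the 29 calls remained. Across genes, deviations from the group mean correlated at -0.048, -0.024 and -0.031 between same-numbered libraries, and at -0.089 to 0.117 between the others. With 3 libraries in each of the unlike tissues, these values cannot show whether the numbers pair samples. The FPKM fits change the unit, the test and the filter together, and the cause of these shifts was not tested.

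Directions turned as follows, in log2 fold change. With library totals alone Il17ra was 1.25, Il12rb1 0.96, Il11ra1 0.15, Tollip 0.63, Gsdmd 0.34, Sigirr 0.56 and Stat2 0.0036. In the FPKM fits, listed for a pseudocount of 1 (the same in its variants) and then of 0.1, Il17ra was 0.87 and 1.03, Il11ra1 0.0842 and 0.0901, Tollip 0.55 and 0.57, Gsdmd 0.21 and 0.22, Sigirr 0.13 and 0.14, and Stat2 0.0185 and 0.0158, with Il12rb1 at 0.32 in the unfiltered fit. Without tumour 2 the values were -0.14 for Il15, -0.25 for Il2rb, -0.0762 for Il1a and -0.26 for Il34, and without libraries 2 of both groups -0.35, -0.56, -0.0579 and -0.16, with Il1r1 at -0.15. Il1a was -0.07 without liver 1 and -0.0002 under the 1 CPM filter. Il17ra was 0.0859 without a low-count filter, 0.02 without tumour 3 and 0.12 without liver 3. Over all fits that left out a library, Il15 ranged from -0.14 to 0.87, Il2rb from -0.25 to 0.90, Il1a from -0.0762 to 0.13, Il34 from -0.26 to 0.41 and Il17ra from -0.14 to 0.12.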

Other observations

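The ratio of scaled counts to FPKM gives the transcript length that the deposited FPKM values imply. For Il1rap that length was 4.58 ± 0.275 kb (SD, n = 3) in tumours and 2.44 ± 0.249 kb in livers, a ratio of 1.88 that lay at percentile 99.5 of 7928 genes, whose median ratio was 1.03. For Il10rb the ratio was 1.35 (percentile 97.4), and for Il6st it was 0.779 (percentile 0.9), with 6.89 kb in tumours and 8.84 kb in livers. Values of single transcripts were not analysed here.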
